A study of Mus musculus with 5 samples.

Results

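The genes described here encode cell surface molecules of the immune system and their relatives: CD antigens, C-type lectins, Fc receptors, siglecs and killer cell lectin-like receptors. They were taken by symbol from the platform's gene annotation, as every symbol that starts with Cd and a digit, Clec, Fcgr, Fcer, Siglec or Klr. The array carried 123 such genes, and 78 of them had a feature measured on 4 or 5 of the 5 arrays: 49 Cd, 16 Clec, 3 Fcgr, 2 Fcer, 2 Siglec and 6 Klr symbols. Of the other 45 genes, 23 had no value on any array and 22 had values on 1 to 3 arrays. The rule itself uses only symbols and that requirement, but it was set with earlier results of these data known.

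A CD number is given to a leukocyte surface molecule once monoclonal antibodies define it, so the series mixes receptors, adhesion molecules, tetraspanins and enzymes that share no fold. Fc receptors bind the constant part of antibodies and tie antigen recognition to phagocytosis and degranulation. Many of them, like many C-type lectins that bind microbial or host sugars, signal through an immunoreceptor tyrosine-based activation motif (ITAM), often on a separate adaptor chain, or are restrained by the matching inhibitory motif (ITIM). In lung, alveolar and interstitial macrophages carry most of the Fc receptors and scavenger receptors, while several CD antigens lie mainly on endothelium, epithelium or fibroblasts.

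Lungs came from 129svJ mice, an inbred strain. Each of the 5 arrays compared amplified lung RNA of 1 mouse treated with bleomycin, a DNA-cleaving antibiotic used to injure the lung, with the same pool of amplified lung RNA from control 129svJ mice. The sources used here give no dose, route, time, age, sex or number of mice in the pool, and the study has no other group. The measurement is a log ratio of the 2 channels, taken as log2 without a source for the base.

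Which channel stands over which in the ratio is open. The sample titles put the treated mouse first, no dye is named, and the complement genes C1qa and C1qb of macrophages lay below 0 while the endothelial genes Pecam1 and Tek lay above 0. Values are therefore given by their side of 0, without saying whether mouse or pool held more RNA. In whole lung, fewer cells of a type and less RNA per cell cannot be told apart. Features for the surfactant genes Sftpa1 and Sftpc, the club cell gene Scgb1a1 and the type 1 cell gene Ager had values on 5 arrays, but a ratio holds no level, so the tissue itself could not be checked against its markers. Arrays held values for 11350 to 12083 of 17280 features. How far each feature stood above background cannot be read from ratios, and precision is limited by there being 5 arrays.

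As a group, these genes crossed the threshold about as often as any genes on the array, but they were found more on the negative side, and those far from 0 were mostly there. By limma with Benjamini-Hochberg adjustment over all 10081 genes and unnamed features (adjusted p under 0.05), 40 of 78 passed (51.3%), beside 49.6% of everything tested. Below 0 stood 26 (33.3%, beside 23.9%) and above 0 stood 14 (17.9%, beside 25.8%). Both past the threshold and at least 2-fold from 0 were 10 (12.8%, beside 5.59%), 8 below 0 (10.3%, beside 2.35%) and 2 above 0 (2.56%, beside 3.24%). All measured arrays lay on 1 side of 0 for 43 of 78 (55.1%, beside 57.5%), 28 of them below (35.9%, beside 28.1%) and 15 above (19.2%, beside 29.4%). The median of the 78 means was −0.084, against −0.0066 over everything tested. These shares describe the genes and were not tested against the rest. Counts by role and by marker list below stand beside the same 23.9% below 0 and 25.8% above 0. They were not tested against these shares either.

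**Figure D1:**
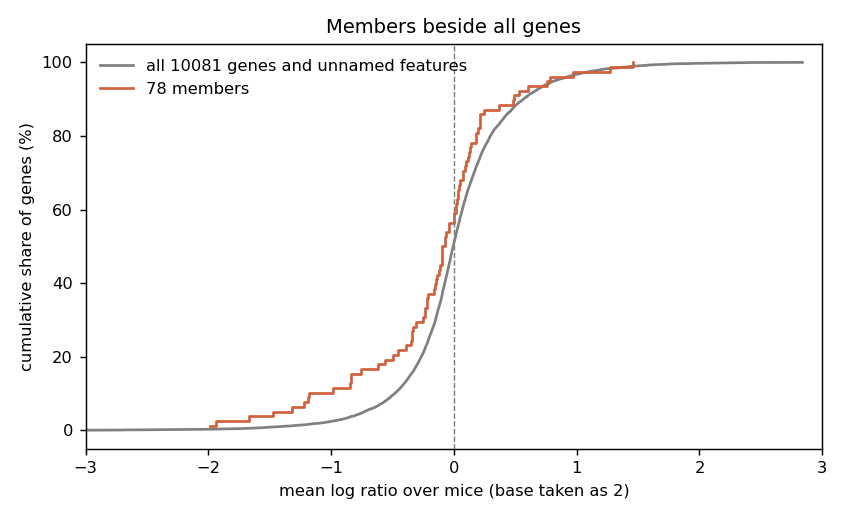
Cumulative share of genes (vertical axis, %) by mean log ratio over the mice (horizontal axis, base taken as 2) for the 78 genes (orange) and all 10081 genes and unnamed features (grey). The axis ends at −3 and leaves out the lowest of all genes. The medians are −0.084 for the 78 genes and −0.0066 for everything tested. The share that both passed the threshold and lay at least 2-fold below 0 is 10.3% against 2.35%. The curves also hold genes that did not pass.

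The test takes the pool as fixed, so a chance departure of the pool from other control mice counts as a difference. When the pool was treated as a single control animal that varies as the treated ones do, 7 of 78 passed (8.97%, beside 5.09% of everything tested). These were Fcer1g, Clec4n, Cd52, Cd248, Cd163 and Cd276 below 0 (7.69%, beside 2.11%) and Cd164 above 0 (1.28%, beside 2.98%). A test for a difference of more than 1.2-fold kept 21 (26.9%, beside 18.3%), 14 below (17.9%, beside 8.04%) and 7 above (8.97%, beside 10.3%). Without moderation of the variances 31 passed (39.7%, beside 38.3%), and the calls of Cd164l2, Cd177, Cd180, Cd2, Cd200r1, Cd68, Cd79a, Clec10a, Clec14a, Klra17 and Klrb1a were lost.

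**Figure D2:**
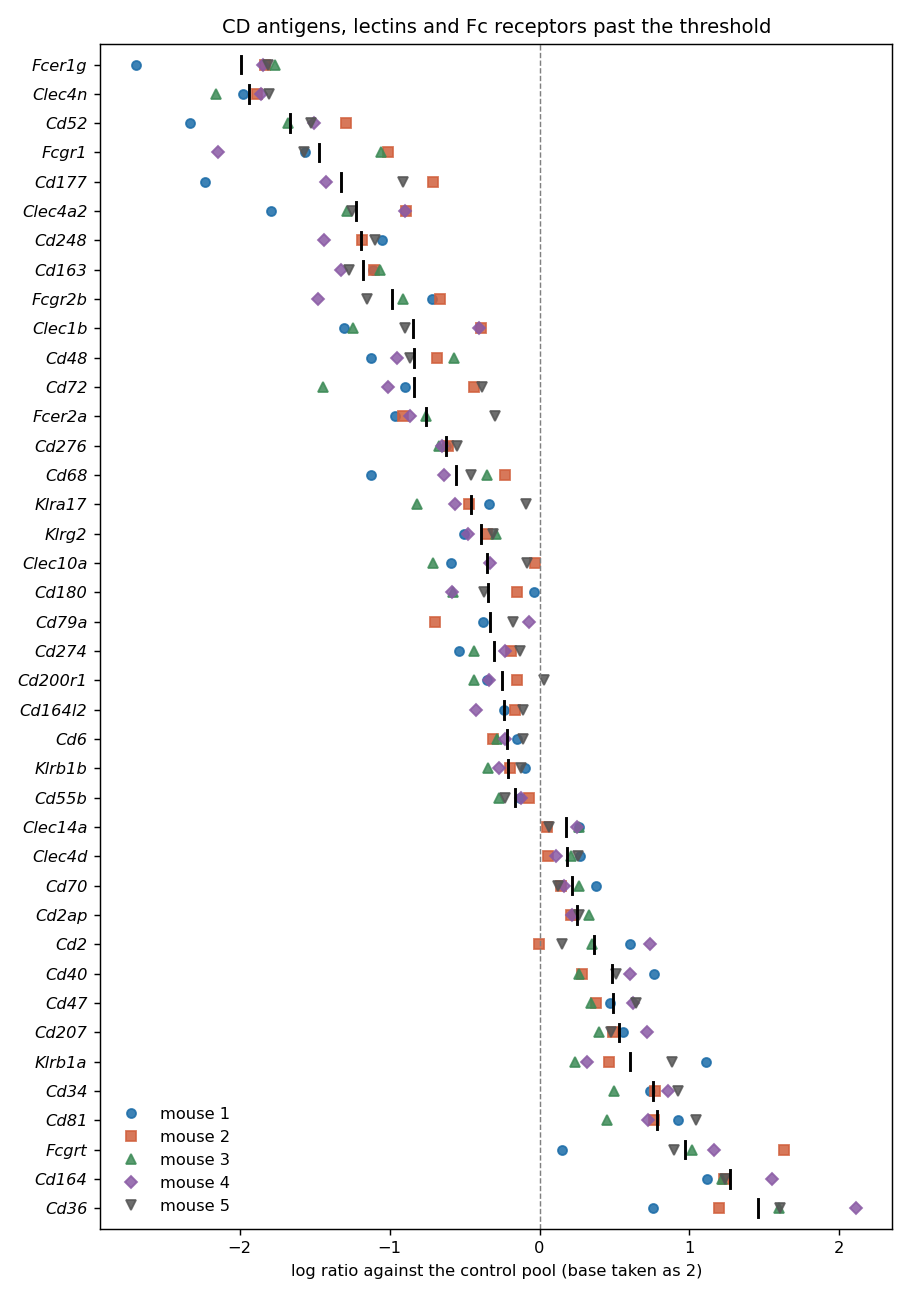
Log ratio against the control pool (horizontal axis, base taken as 2) of the 40 genes past the threshold, ordered by their mean. Each symbol is 1 mouse and the black bar is the mean. Fcer1g and Clec4n stand lowest, Cd36 and Cd164 highest, and only Cd200r1 and Cd2 have a mouse across 0.

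Fc receptors lay far from 0, and all 5 that were measured passed, 4 below (beside 23.9% of everything tested) and 1 above (beside 25.8%). The 4 below 0 belong to leukocytes, and the 1 above, Fcgrt, is the neonatal Fc receptor, a relative of MHC class I that recycles IgG in endothelium, epithelium and macrophages. Fcer1g encodes the ITAM-bearing gamma chain shared by the activating IgG receptors and the high-affinity IgE receptor. It had the lowest mean of all 78 genes, with log ratios of −2.69, −1.83, −1.77, −1.85 and −1.81 in mice 1 to 5. Mouse 1 stood apart from the other 4, which lay within a narrow band. The mean was −1.99 ± 0.39 (SD, n = 5), a 3.97-fold difference (adjusted p = 7.69e-05).

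Fcgr1, the high-affinity IgG receptor that needs this chain, stood at −1.56, −1.01, −1.06, −2.15 and −1.57 in mice 1 to 5. Its mean was −1.47 ± 0.46 (SD, n = 5), with mouse 4 lowest and mice 2 and 3 near −1 (adjusted p = 0.000472). Fcgr2b, the inhibitory IgG receptor with an ITIM, stood at −0.72, −0.66, −0.91, −1.48 and −1.15 in mice 1 to 5, a mean of −0.98 ± 0.34 (SD, n = 5) (adjusted p = 0.000762). Mouse 4 was again lowest. Activating and inhibitory receptors thus lay on the same side in every mouse, and Fcgr1 minus Fcgr2b was −0.49 ± 0.27 (SD, n = 5), negative in 5 of 5 mice.

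Fcer2a, the low-affinity IgE receptor CD23 of B cells, is itself a C-type lectin. It stood at −0.96, −0.91, −0.76, −0.87 and −0.30 in mice 1 to 5, a mean of −0.76 ± 0.27 (SD, n = 5) (adjusted p = 0.00103). Mouse 5 was nearest to 0. Fcgrt stood at 0.15, 1.63, 1.02, 1.16 and 0.90 in mice 1 to 5, all above 0. Its mean of 0.97 ± 0.54 (SD, n = 5) had the widest spread of those of the 78 genes with a mean above 0, with mouse 1 near 0 and mouse 2 highest (adjusted p = 0.00483).

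Promoter sequences are shown for 2 of the genes below 0, Fcer1g as the gene with the lowest mean and Cd72 as an example of the motif searched. They are the 250 bases before the annotated start on the gene's own strand, from RefSeq (GRCm38.p6), at chr1:171234350-171234599 and chr4:43454627-43454876, both on the minus strand. Capitals mark a match.
Fcer1g: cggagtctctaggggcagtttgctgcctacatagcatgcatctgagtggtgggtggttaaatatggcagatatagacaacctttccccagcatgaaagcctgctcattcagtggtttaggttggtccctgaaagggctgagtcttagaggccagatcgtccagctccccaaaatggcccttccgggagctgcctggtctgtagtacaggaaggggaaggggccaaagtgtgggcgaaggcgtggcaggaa
Cd72: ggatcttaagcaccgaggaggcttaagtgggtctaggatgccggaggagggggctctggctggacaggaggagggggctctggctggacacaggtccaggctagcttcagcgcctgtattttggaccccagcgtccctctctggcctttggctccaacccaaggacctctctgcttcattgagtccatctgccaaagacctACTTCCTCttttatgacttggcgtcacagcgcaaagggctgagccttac

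Of the 78 genes, 62 had such a window. The core motif of PU.1, the transcription factor of myeloid and B cells (GAGGAAGT, either strand), was found in 5 of them (8.06%), beside 2.79% of 27025 genes with a window. It was in Cd72, where it starts at position −49 from the annotated start, and in Cd300ld, Cd37, Cd5 and Cd82, none of which passed the threshold. The window of Fcer1g did not hold these letters. A match is a run of letters and no measure of binding.

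Proteins that pass on signals from these receptors were divided. Of 19 measured genes of ITAM and ITIM signalling, 8 were below 0, 3 above 0 and 8 did not pass, with a median of −0.145. Fgr, a Src-family kinase of myeloid cells, stood at −1.12, −0.84, −0.85, −1.17 and −0.87 in mice 1 to 5, and Btk, the kinase downstream of Syk-coupled receptors in B and myeloid cells, at −0.85, −0.996, −0.62, −0.76 and −0.79 in mice 1 to 5. Both lay below 0 in every mouse, at means of −0.97 ± 0.16 and −0.80 ± 0.14 (adjusted p = 8.35e-05 and 0.000128). On the other side were Bcl10, which relays ITAM signals to NF-kB, at 1.14 ± 0.37 (adjusted p = 0.000573), and the lymphocyte adaptor Sh2d1a at 0.48 ± 0.099 (adjusted p = 0.000576).

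Tyrobp, the other ITAM adaptor of myeloid receptors, also known as DAP12, was singled out after its values were seen, as the counterpart of Fcer1g. It stood at −1.32, −0.59, −0.63, −0.37 and −0.32 in mice 1 to 5, a mean of −0.65 ± 0.40 (SD, n = 5) (adjusted p = 0.00871). Mouse 1 was lowest for both adaptors. Fcer1g minus Tyrobp was −1.34 ± 0.15 on the log ratio scale (SD, n = 5), negative in 5 of 5 mice (exact two-sided sign-flip test, p = 0.0625, the smallest that 5 arrays allow). Every value of Fcer1g lay below every value of Tyrobp, so the test could give only this p and adds nothing to the values. Of 10 such pairs of genes compared, all gave that p (0.0625 after adjustment over the 10). For each pair it says only that the gap had the same sign in all 5 mice. With all 10 at the smallest p, the adjustment could not change it and adds no evidence.

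**Figure D3:**
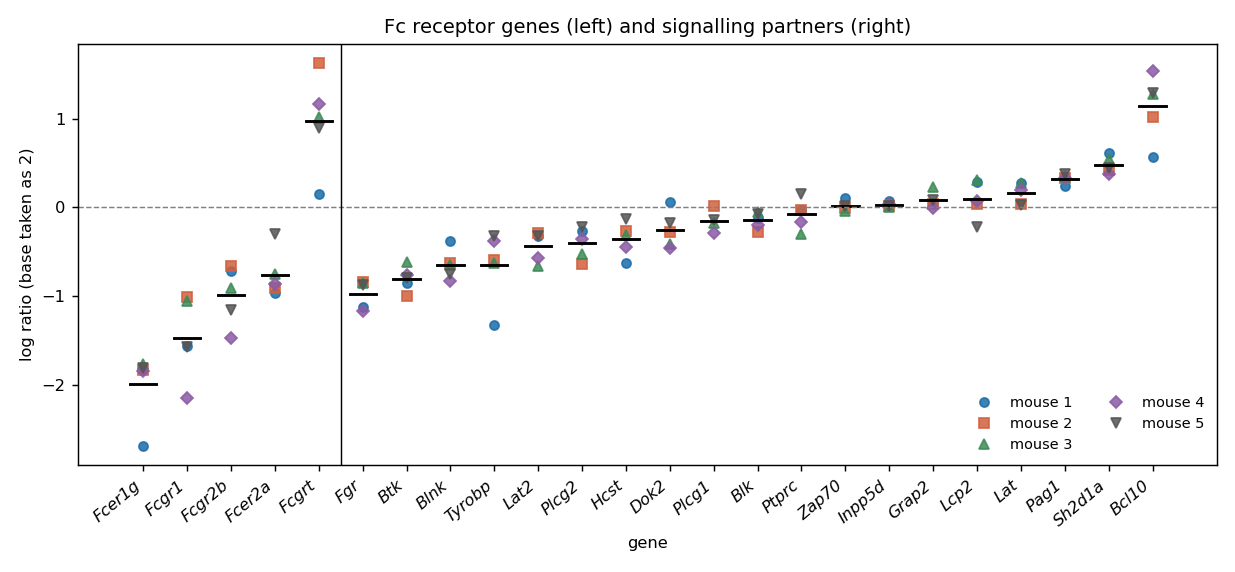
Log ratio (vertical axis, base taken as 2) of the 5 measured Fc receptor genes and, right of the line, the 19 measured signalling partners, ordered by mean within each part. Symbols are mice and black bars are means. Fcgrt is the Fc receptor gene above 0, and the partners run from Fgr at −0.97 to Bcl10 at 1.14.

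Immunoglobulin-family and paired receptors with other names lay below 0 or near it. Of 13 measured, 9 were below 0, 0 above and 4 did not pass (median −0.39). Lilrb4a, an inhibitory ITIM receptor of myeloid cells, stood at −2.39, −1.63, −2.28, −2.36 and −2.12 in mice 1 to 5, a mean of −2.16 ± 0.31 (adjusted p = 2.93e-05). Trem1, an activating receptor of neutrophils and monocytes that pairs with Tyrobp, stood at −0.82, −0.87, −0.94 and −1.18 in mice 1, 3, 4 and 5, a mean of −0.95 ± 0.16 (SD, n = 4) (adjusted p = 0.000284). By limma, 0 genes of this list lay above 0 at an unadjusted p under 0.05.

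C-type lectins were mostly near 0, with a few far below it. Of the 16 Clec genes measured, 4 passed below 0 (beside 23.9% of everything tested) and 2 above 0 (beside 25.8%). The other 10 did not pass, and the median of the 16 was −0.12. Clec4n, which encodes dectin-2, a receptor for fungal mannans that signals through the Fcer1g chain, stood at −1.98, −1.88, −2.16, −1.86 and −1.80 in mice 1 to 5. The mice agreed closely, at a mean of −1.94 ± 0.14 (SD, n = 5), a 3.83-fold difference (adjusted p = 8.87e-06). Clec4a2, the ITIM-bearing receptor DCIR of dendritic cells and macrophages, stood at −1.79, −0.89, −1.29, −0.90 and −1.25 in mice 1 to 5, a mean of −1.22 ± 0.37 (SD, n = 5) (adjusted p = 0.000428). Mouse 1 was lowest.

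Clec1b, or CLEC-2, is the platelet receptor for podoplanin and is also found on some myeloid cells. It stood at −1.30, −0.39, −1.25, −0.40 and −0.90 in mice 1 to 5, a mean of −0.85 ± 0.44 (SD, n = 5) (adjusted p = 0.00401). Mice 1 and 3 were low and mice 2 and 4 near −0.4. Of 5 other blood and platelet genes, 2 passed below 0 and 1 above. The platelet chemokine Pf4 stood at −1.201, −0.17, −0.41, −0.032 and −0.46 in mice 1 to 5. The platelet gene Gp9 averaged −0.31 ± 0.19 and the red cell gene Alas2 0.43 ± 0.14. The platelet gene Ppbp lay above 0, at 0.12, 0.18, 0.034 and 0.078 in mice 1, 2, 3 and 4, and the red cell gene Slc4a1 averaged −0.20 ± 0.28; neither passed (adjusted p = 0.185 and 0.147). Mouse 1 was lowest for Clec1b and for Pf4, and the part of platelets in the value of Clec1b was not tested.

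The remaining Clec genes past the threshold lay closer to 0. Clec10a, a galactose-type lectin of macrophages and dendritic cells, stood at −0.59, −0.031, −0.71, −0.33 and −0.086 in mice 1 to 5, a mean of −0.35 ± 0.30 (SD, n = 5) (adjusted p = 0.0344). Clec14a, an endothelial lectin, stood at 0.27, 0.047, 0.26, 0.25 and 0.06 in mice 1 to 5, a mean of 0.18 ± 0.11 (SD, n = 5) (adjusted p = 0.0404). Clec4d, the partner of mincle, stood at 0.27, 0.055, 0.21, 0.11 and 0.26 in mice 1 to 5, a mean of 0.18 ± 0.094 (SD, n = 5) (adjusted p = 0.0293). Each of the 3 calls was lost when 1 mouse was left out: without mouse 1, 3 or 4 for Clec10a and Clec14a (adjusted p of 0.0751 to 0.0967 and 0.0975 to 0.115) and without mouse 1, 3 or 5 for Clec4d (adjusted p of 0.0738 to 0.0883).

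Clec7a, which encodes dectin-1, the receptor for fungal beta-glucan, did not pass at 0.03, 0.47, −0.043, 0.30 and 0.30 in mice 1 to 5. Its mean was 0.21 ± 0.21 (SD, n = 5) with a 95% confidence interval of 0.012 to 0.41 (adjusted p = 0.0737, and 0.0438 without mouse 3). Clec2d, a ligand of Klrb1b, had the second-widest spread of the 78 genes, at −0.88, −0.11, −0.45, 0.64 and −0.37 in mice 1 to 5. Mouse 4 was above 0 and the others below, and its mean of −0.23 ± 0.56 did not pass (adjusted p = 0.344). Without mouse 4 it passed at −0.45 (adjusted p = 0.0298). Clec3b, or tetranectin, a plasma protein that binds plasminogen, averaged −0.15 ± 0.45 (adjusted p = 0.449) and passed without mouse 1 at −0.35 (adjusted p = 0.0059).

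Genes of the dectin-2 group lie side by side on chromosome 6, and neighbours there had unlike ratios. In the RefSeq order (GRCm38.p6), Clec4b1 is followed directly by Clec4a2, then, after 1 other protein-coding gene, by Clec4n, Clec4d and Clec4e. Clec4n and Clec4a2 lay far below 0, whereas Clec4a3 averaged −0.094 ± 0.052, Clec4b1 0.077 ± 0.084 and Clec4e, which encodes mincle, 0.032 ± 0.20, none of them past the threshold (Clec4a3 passed without variance moderation, adjusted p = 0.0439). Clec4n minus its neighbour Clec4d was −2.12 ± 0.18 and Clec4a2 minus Clec4b1 −1.301 ± 0.31 (SD, n = 5), both negative in 5 of 5 mice (exact two-sided sign-flip test, p = 0.0625 for each, the smallest that 5 arrays allow). These pairs were chosen after their values were seen. In each pair the values of the 2 genes did not overlap between mice, so the test adds nothing to them. Clec4a2, Clec4a3 and Clec4b1 are close copies of each other, and which of them each feature binds was not tested.

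**Figure D4:**
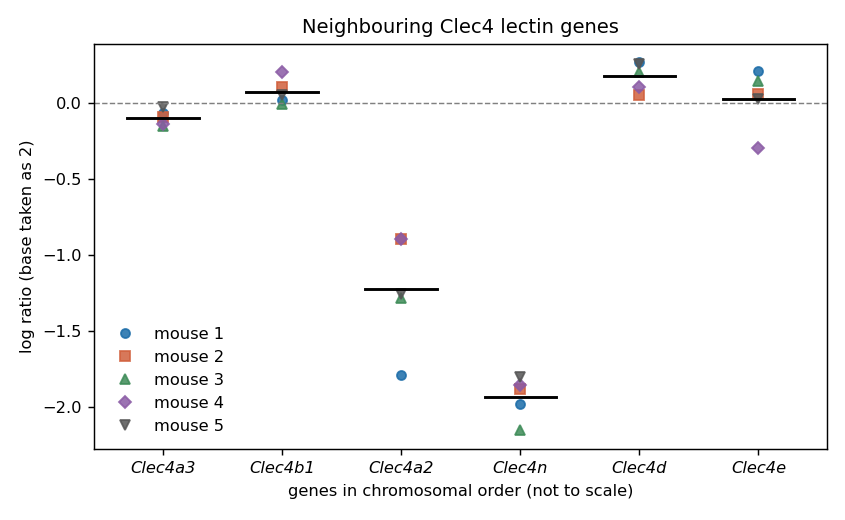
Log ratio (vertical axis, base taken as 2) of 6 Clec4 genes in their chromosomal order, evenly spaced. Symbols are mice and black bars are means. Clec4a2 and Clec4n lie at −0.89 or lower in every mouse, and the other 4 genes between −0.29 and 0.27.

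A list of C-type lectins with other names spread over both sides: of 18 genes measured, 7 were below 0, 6 above and 5 did not pass (median −0.14). The list also held the ficolin Fcnb and Susd2, which are no C-type lectins, and neither passed. The farthest below were the matrix proteoglycan Vcan at −2.52 ± 0.21 and the gut and airway lectin Reg3g at −0.68 ± 0.43. Farthest above were the surfactant collectin Sftpa1 at 2.41 ± 0.30 and the scavenger collectin Colec12 at 1.02 ± 0.40 (adjusted p = 8.87e-06, 0.00879, 2.33e-05 and 0.00133). The macrophage mannose receptor Mrc1 stood above 0, at 0.58 ± 0.28 on 4 arrays (adjusted p = 0.00759).

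Myeloid and scavenger receptors did not share a side. Of 9 measured, 3 were below 0 (beside 23.9% of everything tested), 1 above (beside 25.8%) and 5 did not pass. Cd163, the macrophage receptor for haptoglobin and haemoglobin complexes, stood at −1.11, −1.10, −1.07, −1.33 and −1.27 in mice 1 to 5. The mice differed little, at a mean of −1.18 ± 0.12 (SD, n = 5), a 2.26-fold difference (adjusted p = 2.79e-05). Cd68, the lysosomal glycoprotein of macrophages, stood at −1.12, −0.23, −0.35, −0.64 and −0.45 in mice 1 to 5, a mean of −0.56 ± 0.35 (SD, n = 5) (adjusted p = 0.00934). Mouse 1 was lowest, and mouse 2 nearest to 0.

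Cd177, a surface protein of neutrophils, stood at −2.23, −0.71, −1.43 and −0.91 in mice 1, 2, 4 and 5. It had the widest spread of the 78 genes, at a mean of −1.32 ± 0.68 (SD, n = 4), with mouse 1 lowest (adjusted p = 0.0061, and 0.0668 without variance moderation). Cd36, the fatty acid transporter and scavenger receptor of macrophages, fat and capillary endothelium, had the highest mean of all 78 genes. It stood at 0.76, 1.198, 1.595, 2.11 and 1.61 in mice 1 to 5, all above 0, with mouse 4 highest and mouse 1 lowest. Its mean was 1.46 ± 0.51 (SD, n = 5), a 2.74-fold difference (adjusted p = 0.000712). Cd33, a siglec of myeloid cells, Cd300ld, Cd302, Cd209d and Cd209e did not pass, with means from −0.12 to 0.21 (Cd209e passed without centring, adjusted p = 0.0382).

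Markers of leukocyte types, and of skeletal muscle, outside this family gave the following values beside these receptors. The counts stand beside 23.9% below 0 and 25.8% above 0 of everything tested. Of 12 macrophage markers, 8 were below 0 and 1 above, with medians of −0.48, −0.13, −0.32, −0.51 and −0.32 in mice 1 to 5, and the lowest were C1qb at −2.68 ± 0.23 and C1qa at −2.11 ± 0.79. Of 7 neutrophil markers, 1 was below (S100a8, at −0.24 ± 0.13) and 1 above (Csf3r, at 0.61 ± 0.46). Of 9 dendritic cell markers 4 were below, led by Itgax at −0.54 ± 0.26 and Irf8 at −0.46 ± 0.25, and 0 above (0 at an unadjusted p under 0.05). Of 4 mast cell, basophil and eosinophil markers Mcpt8 was below, at −0.40 ± 0.13, and Kit above, at 0.67 ± 0.34. Skeletal muscle markers were below 0 in 9 of 12, led by Tnnc2 at −3.74 ± 2.34 and Myh8 at −3.44 ± 2.08, with medians of −3.71, −2.91, −0.21, −0.40 and −2.05 in mice 1 to 5. The part of any of these cell types in the receptors' ratios was not tested.

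Both measured pan-leukocyte antigens with a Cd symbol lay below 0. Ptprc, the common leukocyte antigen, was counted among the signalling partners and did not pass. It stood at −0.025, −0.031, −0.30, −0.17 and 0.16 in mice 1 to 5, a mean of −0.074 ± 0.17 (limma, adjusted p = 0.427). Cd52, a small GPI-anchored glycoprotein of lymphocytes and monocytes, stood at −2.33, −1.29, −1.68, −1.51 and −1.52 in mice 1 to 5, a mean of −1.67 ± 0.40 (SD, n = 5) and a 3.17-fold difference (adjusted p = 0.000157). Mouse 1 was lowest and mouse 2 nearest to 0. Cd48, a ligand for receptors of NK cells and T cells, stood at −1.12, −0.69, −0.57, −0.95 and −0.86 in mice 1 to 5, a mean of −0.84 ± 0.22 (SD, n = 5) (adjusted p = 0.000336).

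B cell antigens were below 0 or did not pass. By limma, 3 of 6 were below (beside 23.9% of everything tested) and 0 above (beside 25.8%). At an unadjusted p under 0.05, 0 were above. Cd72, an inhibitory lectin-like receptor of B cells, stood at −0.90, −0.44, −1.45, −1.01 and −0.38 in mice 1 to 5, a mean of −0.83 ± 0.44 (SD, n = 5) (adjusted p = 0.00421). Mouse 3 was lowest. Cd180, a Toll-like receptor homologue of B cells, macrophages and dendritic cells, stood at −0.035, −0.15, −0.58, −0.58 and −0.37 in mice 1 to 5, a mean of −0.34 ± 0.25 (SD, n = 5) (adjusted p = 0.0205), and its call was lost without mouse 3, 4 or 5 (adjusted p of 0.0591 to 0.0673).

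Cd79a, the signalling chain of the B cell receptor, stood at −0.37, −0.69, −0.072 and −0.18 in mice 1, 2, 4 and 5. Its mean of −0.33 ± 0.27 (SD, n = 4) passed narrowly (adjusted p = 0.0486), and the call was lost without mouse 1, 2 or 5, and without mouse 3, which has no value for it but enters the fit across genes (adjusted p of 0.0577 to 0.122), and without centring, with scaled arrays, with features on at least 3 arrays and without moderation (adjusted p of 0.0589, 0.0752, 0.0518 and 0.152). Cd74, the invariant chain of MHC class II, averaged −0.34 ± 0.43, Cd37 −0.11 ± 0.11 and Cd22 −0.094 ± 0.20, and none of them passed. Outside the family, 3 of 8 B and plasma cell markers were below 0 and 1 above, with the complement receptor Cr2 at −0.80 ± 0.31 and the immunoglobulin J chain at −0.70 ± 0.094 below, and the plasma cell factor Xbp1, also active in secretory epithelium, at 0.75 ± 0.13.

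T cell antigens lay near 0. Of 11 measured, 1 was below (beside 23.9% of everything tested), 1 above (beside 25.8%) and 9 did not pass. The median of the 11 was 0.037. Cd3e, a chain of the T cell receptor complex, stood at 0.058, −0.047, −0.024, −0.004 and 0.016 in mice 1 to 5, a mean of −0.0002 ± 0.040 (SD, n = 5) with a 95% confidence interval of −0.11 to 0.11 (adjusted p = 0.998). The other CD3 chains, Cd3d and Cd3g, averaged −0.061 ± 0.10 and 0.046 ± 0.075, and the CD8 chain Cd8b1 0.04 ± 0.089. The other CD8 chain, Cd8a, stood at 0.29, 0.20, −0.039 and −0.10 in mice 1, 3, 4 and 5, a mean of 0.087 ± 0.19 (SD, n = 4). Their 95% confidence intervals were −0.19 to 0.073 for Cd3d, −0.099 to 0.19 for Cd3g, −0.086 to 0.17 for Cd8b1 and −0.12 to 0.30 for Cd8a.

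Cd6, a receptor of T cells for the adhesion molecule ALCAM, stood at −0.15, −0.31, −0.29, −0.23 and −0.11 in mice 1 to 5, a mean of −0.22 ± 0.087 (SD, n = 5) (adjusted p = 0.0137, and 0.0508 without mouse 2). Its neighbour on chromosome 19, Cd5, averaged 0.037 ± 0.15 and did not pass. Cd2, an adhesion molecule of T and NK cells, stood at 0.60, −0.003, 0.35, 0.74 and 0.15 in mice 1 to 5, a mean of 0.37 ± 0.31 (SD, n = 5) (adjusted p = 0.0307). Mouse 2 was close to 0 and mice 1 and 4 high, and the call was lost without mouse 1, 3 or 4 (adjusted p of 0.0739 to 0.0827). Of 9 T and NK cell markers outside the family, 0 were below 0 (1 at an unadjusted p under 0.05) and 3 above, led by the T cell receptor gene Tcra at 0.37 ± 0.19 and granzyme B, Gzmb, at 0.29 ± 0.12.

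Costimulatory molecules and other antigens of antigen-presenting cells were split, with 3 of 8 below 0, 3 above and 2 not passing. Cd276, or B7-H3, a relative of the B7 ligands found on fibroblasts, epithelium and myeloid cells, stood at −0.62, −0.61, −0.67, −0.65 and −0.55 in mice 1 to 5. The mice were nearly alike, at a mean of −0.62 ± 0.047 (SD, n = 5) (adjusted p = 0.000102). Cd274, or PD-L1, the ligand that restrains T cells through PD-1, stood at −0.54, −0.19, −0.44, −0.23 and −0.13 in mice 1 to 5, a mean of −0.30 ± 0.17 (SD, n = 5) (adjusted p = 0.0127). Cd200r1, an inhibitory receptor of myeloid cells for CD200, stood at −0.35, −0.15, −0.43, −0.34 and 0.032 in mice 1 to 5, a mean of −0.25 ± 0.19 (SD, n = 5) (adjusted p = 0.0326), and its call was lost without mouse 1, 2, 3 or 4 (adjusted p of 0.058 to 0.1).

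Above 0 in this group was Cd207, or langerin, the lectin of Langerhans cells and airway dendritic cells, at 0.56, 0.49, 0.40, 0.72 and 0.48 in mice 1 to 5. Its mean was 0.53 ± 0.12 (SD, n = 5) (adjusted p = 0.000531), and it was above its direct neighbour on chromosome 6, the Kupffer cell lectin Clec4f (mean 0.075 ± 0.13, not past the threshold), in 5 of 5 mice. Cd40, the receptor through which T cells activate B cells and macrophages, stood at 0.76, 0.28, 0.27, 0.60 and 0.51 in mice 1 to 5, a mean of 0.48 ± 0.21 (SD, n = 5) (adjusted p = 0.00323). Its ligand Cd40lg averaged −0.15 ± 0.077 on 4 arrays and did not pass (adjusted p = 0.0902). Cd70, the ligand of CD27, stood at 0.38, 0.15, 0.26, 0.17 and 0.12 in mice 1 to 5, a mean of 0.21 ± 0.11 (SD, n = 5) (adjusted p = 0.0181, and 0.0566 without mouse 3).

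Antigens found on many cell types lay on both sides: of 9 measured, 3 were above, 2 below and 4 did not pass. Cd164, a sialomucin of haematopoietic progenitors and many epithelia, stood at 1.12, 1.23, 1.22, 1.55 and 1.24 in mice 1 to 5, a mean of 1.27 ± 0.17 (SD, n = 5) and a 2.41-fold difference (adjusted p = 3.38e-05). Cd81, a tetraspanin that forms part of the B cell co-receptor and is widely expressed, stood at 0.93, 0.76, 0.45, 0.72 and 1.05 in mice 1 to 5, a mean of 0.78 ± 0.23 (SD, n = 5) (adjusted p = 0.000529). Cd47, which restrains phagocytosis through SIRP-alpha on macrophages, had 2 features that were averaged. It stood at 0.47, 0.38, 0.34, 0.62 and 0.64 in mice 1 to 5, a mean of 0.49 ± 0.14 (SD, n = 5) (adjusted p = 0.000972), and the features alone gave 0.49 and 0.46. Sirpa, the receptor of CD47, stood on the other side of 0, at −0.27, −0.29, −0.37 and −0.64 in mice 2, 3, 4 and 5, a mean of −0.39 ± 0.17 (adjusted p = 0.00884), and was named after its values were seen.

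Closer to 0, on its lower side, were Cd164l2, a relative of Cd164, and Cd55b, a copy of the complement regulator Cd55. Cd164l2 stood at −0.24, −0.16, −0.42 and −0.11 in mice 1, 2, 4 and 5 and Cd55b at −0.13, −0.073, −0.27, −0.12 and −0.23 in mice 1 to 5. Their means were −0.23 ± 0.14 and −0.17 ± 0.082 (adjusted p = 0.0375 and 0.0342). Both calls were fragile: that of Cd164l2 was lost without mouse 1, 2, 4 or 5 (adjusted p of 0.0521 to 0.114) and that of Cd55b without any 1 mouse (adjusted p of 0.0505 to 0.102). Cd55 itself averaged 0.20 ± 0.18 and did not pass (adjusted p = 0.0644, and 0.049 without centring). The copies resemble each other, and whether the features tell them apart was not tested.

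Cd44, the receptor for hyaluronan on leukocytes and mesenchymal cells, stood at −1.06, −0.36, −0.54, 0.27 and −0.78 in mice 1 to 5. Mouse 4 lay above 0 and the others below, and the mean of −0.49 ± 0.50 (SD, n = 5) just missed the threshold (adjusted p = 0.0519). Without mouse 4 it passed at −0.68 (adjusted p = 0.00634), and it also passed with the trimmed mean as centre (adjusted p = 0.0496), with arrays scaled to 1 spread (adjusted p = 0.0448) and with features on all 5 arrays (adjusted p = 0.047). Its 95% confidence interval was −0.91 to −0.078. Cd46, a complement regulator, and the tetraspanin Cd82 averaged −0.069 ± 0.092 and 0.015 ± 0.081 and did not pass.

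Of the antigens of endothelium, progenitors and stroma, the 2 measured lay on opposite sides. Cd248, or endosialin, a C-type lectin-like protein of pericytes and fibroblasts, stood at −1.05, −1.18, −1.44 and −1.09 in mice 1, 2, 4 and 5, a mean of −1.19 ± 0.17 (SD, n = 4) and a 2.28-fold difference (adjusted p = 0.000144). Cd34, a sialomucin of capillary endothelium and progenitors, stood at 0.74, 0.77, 0.50, 0.85 and 0.92 in mice 1 to 5, a mean of 0.76 ± 0.16 (SD, n = 5) (adjusted p = 0.000233). No mouse of one gene overlapped the other. Among 10 endothelial markers outside the family, 9 were above 0 and 0 below (0 below at an unadjusted p under 0.05; median 0.84), with Pecam1 at 2.45 ± 0.30 and Tek at 1.54 ± 0.24 farthest from 0. Of 11 lung epithelial markers 5 were above and 1 below, with Sftpa1 at 2.41 ± 0.30 and Ager at 1.46 ± 0.60 highest and the ciliated cell factor Foxj1 at −0.32 ± 0.09 below.

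Killer cell lectin-like receptors, many of which NK cells and some T cells use to sense MHC class I and Clec2 proteins, lay on both sides of 0. Of 6 measured, 3 were below 0 (beside 23.9% of everything tested), 1 above (beside 25.8%) and 2 did not pass. Klra17, of the Ly49 family, stood at −0.34, −0.47, −0.82, −0.56 and −0.087 in mice 1 to 5, a mean of −0.46 ± 0.27 (SD, n = 5) (adjusted p = 0.009). Klrg2 stood at −0.50, −0.35, −0.29, −0.48 and −0.31 in mice 1 to 5, a mean of −0.39 ± 0.098 (SD, n = 5) (adjusted p = 0.00137). Which cells carried Klra17 or Klrg2 was not tested, and their values are not a reading of NK cells. Klrg1, a marker of mature NK and effector T cells, averaged 0.019 ± 0.10 on 4 arrays and did not pass (adjusted p = 0.821).

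The 3 Klrb1 genes, which encode NKR-P1 receptors, did not share a side of 0. Klrb1a stood at 1.11, 0.47, 0.24, 0.31 and 0.88 in mice 1 to 5, all above 0 with mice 1 and 5 highest, a mean of 0.60 ± 0.38 (SD, n = 5) (adjusted p = 0.00937). Klrb1b, an inhibitory member that binds the Clec2d product, stood at −0.10, −0.20, −0.35, −0.27 and −0.12 in mice 1 to 5, a mean of −0.21 ± 0.10 (SD, n = 5) (adjusted p = 0.0194), and its call was lost without mouse 2, 3 or 4 (adjusted p of 0.0534 to 0.0621). Its 2 features disagreed, at −0.49 ± 0.20 (adjusted p = 0.00244) and 0.077 ± 0.041 (adjusted p = 0.209). Klrb1c, the NK1.1 antigen in strains that carry it, averaged −0.096 ± 0.13 and did not pass. Klrb1a was above the average of the 2 Klrb1b features in 5 of 5 mice, by 0.81 ± 0.28 (SD, n = 5). Every mouse had Klrb1a above 0 and Klrb1b below 0, so the sign of each gap followed from the values above. The exact two-sided sign-flip test could then give only its smallest p, 0.0625, and adds nothing to them. These genes are near copies, and cross-hybridization between them was not tested.

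Siglecs bind sialic acids and mostly inhibit the cells that carry them. The 2 measured under a Siglec symbol were Siglece of neutrophils and macrophages and Siglecf of eosinophils and alveolar macrophages. They averaged 0.097 ± 0.11 on 4 arrays and 0.13 ± 0.24, and neither passed the test (limma, 0 at an unadjusted p under 0.05, adjusted p = 0.266 and 0.281). Cd22, Cd33 and Mag, siglecs under other symbols, were counted in other groups and did not pass either. The 95% confidence interval of Siglecf was −0.09 to 0.35. It stood at −0.066, 0.16, 0.50, 0.15 and −0.10 in mice 1 to 5, with mouse 3 highest.

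Of the symbols, 2 name intracellular proteins that bind CD2. Cd2ap, a scaffold of the actin cytoskeleton, stood at 0.22, 0.21, 0.33, 0.22 and 0.27 in mice 1 to 5, a mean of 0.25 ± 0.049 (SD, n = 5) (adjusted p = 0.00474), and Cd2bp2, a splicing protein, averaged 0.12 ± 0.16 and did not pass. They are no surface antigens and were kept because the choice went by symbol.

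For 38 of the 40 genes past the threshold every measured mouse lay on the same side of 0, and mice differed in how far from it. Of the 26 genes below 0, mouse 1 held the lowest value for 10, mouse 3 for 8, mouse 4 for 6, mouse 2 for 2 and mouse 5 for 0. Of the 14 above 0, mouse 1 held the highest value for 5, mouse 4 for 4, mouse 5 for 3 and mice 2 and 3 for 1 each. Over all features, the SD of the deposited values was 0.595, 0.489, 0.527, 0.520 and 0.511 in mice 1 to 5. Array 1 was thus the widest over all features, and its part in the extremes of mouse 1 was not tested. The spread of the 78 genes between mice was like that of other genes, with a median SD of 0.16 for both. The median over the 78 genes was −0.046, −0.092, −0.074, −0.102 and −0.072 in mice 1 to 5. Of the 40 genes past the threshold, 28 also passed in each of the 5 fits that left out 1 mouse, 18 below 0 and 10 above. That is 70.0%, beside 72.7% of all 5002 genes and unnamed features past the threshold.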

How the data were processed

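Per the labels, each of 5 arrays set lung RNA of 1 bleomycin-treated mouse against 1 pool of control lung RNA. The deposited values are 1 log2 ratio per feature and array. The log base is an assumption, and the sources used here name no dyes, scanner or normalization by the authors. A natural logarithm would make every fold larger. Medians of the deposited values lay between 0.011 and 0.026, and that median was subtracted from each array.

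Of 17280 features, 2809 had no value, and the 10702 with values on at least 4 of 5 arrays were kept. Features were averaged per platform symbol, which left 10081 units for testing, of which 9039 carry a symbol and the others are unnamed features. All 78 genes described matched a RefSeq gene identifier, and no symbol of theirs changed. Testing of means against 0 used limma 3.58.1 (R 4.3.3; intercept only, empirical Bayes moderation, two-sided, Benjamini-Hochberg over all 10081, adjusted p under 0.05). The pool counts as 1 control sample, so its own spread is left out, and any dye bias remains. The smallest p from exact sign flips is 0.0625 here. The procedure was tested on simulated data.

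The genes, roles and marker lists were chosen with earlier results of these data known. Genes given with every mouse were, in each role, up to 3 past the threshold on each side, a list of defining receptors where measured, and the 3 with the widest spread. From each other list up to 2 on each side are named, and further genes named were chosen after their values were seen. Alternatives covered centring, scaling, the filter on missing values, moderation, the pool, a minimum difference of 1.2-fold, the summary of features, updated symbols and leaving out each mouse. One motif searched in the promoters is not reported here.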

Additional observations from a re-analysis of the deposited data

Results flagged for a closer look

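In 4 of the 78 genes, 1 mouse lay far from the other 4 for the range of the values, by Dixon's criterion at 95%. Chance meets this criterion in about 1 in 20 groups, and 4 of 78 is near that share. The criterion was not applied to the other genes on the array. Fcer1g stood at −2.69 in mouse 1, with the nearest other mouse at −1.85. Clec3b stood at 0.63 in mouse 1, the only mouse above 0, with the nearest other at −0.28. Cd37 stood at 0.088 in mouse 5, with the nearest other at −0.14, and Cd164 at 1.55 in mouse 4, with the nearest other at 1.24.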

How the results depend on the processing

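The 40 genes past the threshold (26 below 0, 14 above) kept their side of 0 under every alternative that measured them. The settings for moderation, the pool and the 1.2-fold difference use the same means, so no side could change there. Counts stayed within 1.5 times of these under other centring, scaling, filters on missing values, the median of features, updated symbols and no variance moderation, from 31 to 42 genes with 3866 to 5119 of all, and from 31 to 35 (20 to 22 below, 11 to 14 above) without 1 mouse, with 4106 to 4616 of all genes. With the pool counted as 1 control mouse, 7 genes passed (6 below, 1 above) and 513 of all 10081, against 5002. Requiring at least 1.2-fold left 21 (14 below, 7 above) and 1847 of all. Symbols near 0 changed side: Cd3e to 0.015 without centring, and Clec2h to −0.0024 with the trimmed mean and −0.018 with scaled arrays. Without 1 mouse, means ranged over −0.015 to 0.011 for Cd3e, −0.051 to 0.056 for Clec2h, −0.013 to 0.079 for Cd5, −0.011 to 0.044 for Cd82, −0.026 to 0.053 for Cd96, −0.014 to 0.11 for Clec4e and −0.026 to 0.056 for Klrg1, none of which passed. Calls gained elsewhere were Cd28, at 0.157 without centring and 0.18 without mouse 1 (adjusted p = 0.0486 and 0.0332), and Clec5a, at −0.14 without variance moderation (adjusted p = 0.048). Leaving out centring moved the median of all genes by 0.016. No paired analysis was possible because the study has 1 group. Signal over background is unknown. The cause of these changes was not tested, apart from the wider error that the pool setting adds and the difference that the 1.2-fold setting requires by construction.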

Other observations

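Among the genes left out for too few values, 10 had values on 3 arrays. Fcgr3, an activating IgG receptor that needs the Fcer1g chain, stood at −0.59, −0.77 and −0.203 in mice 3, 4 and 5. Cd79b, the partner chain of Cd79a, stood at −0.27, −0.37 and −0.26 in mice 2, 3 and 4, and Cd247, the zeta chain of the T cell receptor, at 0.14, 0.198 and −0.019 in mice 2, 3 and 5. On 2 arrays, the tetraspanin Cd9 stood at 1.98 and 1.25 in mice 4 and 5, and the endotoxin co-receptor Cd14 at −0.39 and 0.101 in mice 1 and 5. Fcer1a, of the high-affinity IgE receptor that shares the Fcer1g chain, lay above 0, at 0.142 and 0.087 in mice 1 and 2. Cd4, Cd53, Cd63, Cd80, Cd86 and Cd93 had no value on any array.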
